A study of Mus musculus with 24 samples.

Results

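Slit1, Slit2, Slit3, Robo1, Robo2, Ntn1, Unc5b and Unc5c are 8 genes of the Slit, Robo and netrin guidance system. They were followed by gene symbol through the RNA counts of mouse astrocytes given insulin or IGF-1, and make up 8 of the 32719 genes counted and 8 of the 15599 abundant enough to be tested. The 8 were chosen by the sign of their measured responses to insulin and to IGF-1, which had been seen to agree in some and differ in others, so those responses are described here without tests. The rule did not name the differences between genotypes, which are tested. Earlier results of these data were known when the 8 were chosen, and the same libraries enter both kinds of comparison. The genotype p-values may therefore not be independent of the choice.

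The cells were primary cortical astrocytes grown from newborn pups with a floxed insulin receptor gene. All sample titles give day 14 in vitro (DIV14). IRKO cultures received an adenovirus carrying a fusion of Cre and green fluorescent protein, and IRflox cultures one carrying green fluorescent protein alone, 5 days before use. Each genotype was starved of serum overnight in 0.1% albumin and then kept for 6 h with vehicle or with insulin or IGF-1 at 100 nM. The 6 groups, with 4 libraries each, were IRKO with insulin, IRKO with IGF-1, IRKO with vehicle, IRflox with insulin, IRflox with IGF-1 and IRflox with vehicle. All 24 libraries thus carry the floxed allele, an adenovirus, green fluorescent protein and serum starvation, and the presence of Cre cannot be told apart from the loss of the receptor. No label states that replicate libraries came from different cultures, and the p-values therefore reflect how far these libraries differ, which may be technical variation alone.

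Slit proteins are large secreted ligands of the Robo receptors and are best known for repelling growing axons and migrating neurons. Netrin-1, the product of Ntn1, is a secreted, laminin-related ligand that attracts through DCC and neogenin and repels where UNC5 receptors take part. In the postnatal brain, Slit1 released by migrating young neurons acts on Robo receptors of astrocytes along their path. Insulin and IGF-1 act through related receptor tyrosine kinases, encoded by Insr and Igf1r.

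The promoters of Slit2, Unc5b and Robo2 are shown because these 3 genes were lower in IRKO astrocytes under all 3 treatments and belong to the ligand and to both receptor families. Each is the 250 bases before a RefSeq start on GRCm38.p6, read 5′ to 3′ on the gene's strand. Capitals mark a TATA box (TATAAA) or a GC box (GGGCGG, written CCGCCC when it lies on the other strand).
Slit2, chr5:47982905-47983154, plus strand: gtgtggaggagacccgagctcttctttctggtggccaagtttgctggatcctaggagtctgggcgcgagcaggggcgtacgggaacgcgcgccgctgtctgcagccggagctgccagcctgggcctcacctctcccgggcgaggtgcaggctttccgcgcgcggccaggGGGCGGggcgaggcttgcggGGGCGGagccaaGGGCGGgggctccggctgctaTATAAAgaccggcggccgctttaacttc
Unc5b, chr10:60831582-60831831, minus strand: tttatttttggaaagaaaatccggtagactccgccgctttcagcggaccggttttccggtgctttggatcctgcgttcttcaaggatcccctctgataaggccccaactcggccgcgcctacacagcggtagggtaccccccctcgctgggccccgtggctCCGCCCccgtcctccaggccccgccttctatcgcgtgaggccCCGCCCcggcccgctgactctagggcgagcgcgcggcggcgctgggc
Robo2, chr16:74411826-74412075, minus strand: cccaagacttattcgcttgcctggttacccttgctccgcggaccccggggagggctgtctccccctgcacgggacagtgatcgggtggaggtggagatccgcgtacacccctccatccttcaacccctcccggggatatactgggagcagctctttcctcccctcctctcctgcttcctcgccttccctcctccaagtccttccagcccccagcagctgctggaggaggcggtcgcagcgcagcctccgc
The Slit2 promoter holds 3 GC boxes and 1 TATA box, whose first base is at position -28 counted from the start. The Unc5b promoter holds 2 GC boxes and no TATA box, and the Robo2 promoter holds neither. Searched on both strands, TATAAA occurs in 12.4% and GGGCGG in 32.7% of the 32851 promoter windows of the same length. Both motifs were added to the search after the sequences had been seen. None of the 3 windows holds the FOXO letters GTAAACA (3.17% of all windows), the AP-1 letters TGACTCA (4.46%) or the E-box CACGTG (6.02%). The 3 windows have 25 (Slit2), 27 (Unc5b) and 14 (Robo2) CpG dinucleotides, against a median of 6 over all windows. Robo2 has 3 RefSeq starts, of which the one at the 5′ end of the GENCODE M21 gene is shown. Of its other windows, one holds an E-box and they have 8 and 4 CpG dinucleotides. RefSeq windows matched 6 of the 8 genes. Unc5c was also lower in IRKO under all 3 treatments, but its window is not shown. That window holds none of the motifs named above and has 23 CpG dinucleotides. All 250 of its bases lie in annotated exons of Unc5c. A match is a description of the letters and not evidence of a bound site.

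The libraries held 15429688 to 19010986 gene counts. Levels are given as CPM, counts scaled to a common library size with the trimmed mean of M-values (TMM). Insr, the targeted gene, had 26.6, 29.6, 29 and 30.6 CPM in the IRKO insulin libraries and 52.6, 47.5, 50.2 and 48.1 CPM in the IRflox insulin libraries. It was lower in IRKO astrocytes under each treatment, with log2 differences of -0.61 (vehicle), -0.78 (insulin) and -0.68 (IGF-1, edgeR adjusted p from 1.56e-12 to 3e-10). In percent these were -34.3% (vehicle), -41.6% (insulin) and -37.5% (IGF-1). Most Insr RNA was thus still counted in IRKO, and how complete the loss of the receptor was cannot be read from it. The summed level of 12 astrocyte markers was 4203 to 5042 CPM, with Gfap, an intermediate filament of astrocytes, at 618 to 755 CPM. Of the same list, S100b had only 1.7 to 3.93 CPM and Gjb6 0 to 0.192 CPM. Under IGF-1 the sum was higher in IRKO without overlap, 4533 to 4572 against 4203 to 4347 CPM in IRflox libraries. Under vehicle and insulin the genotypes overlapped in that sum.

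Ntn1 stood highest of the 8 genes per length and Slit1 lowest. In IRflox vehicle libraries the mean level, as CPM per kilobase of the longest coding transcript, was 46 for Ntn1, 27 for Slit2, 9.98 for Robo2, 6.28 for Unc5b, 5.48 for Robo1, 3.18 for Slit3, 2.97 for Unc5c and 0.0817 for Slit1. Slit1 had 2 to 16 counts in a library, close to the limit of the filter on low counts, while the other 7 genes had at least 172 counts in each. Per kilobase of all annotated exons Slit2 came to 10.6, since its exons in GENCODE M21 add up to 25433 bases against 9960 bases for the longest coding transcript. Ntn1 remained first and Slit1 last on that scale, at 43 and 0.0783 CPM per kilobase. None of the 8 genes shares exon sequence with another counted gene.

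**Figure D1:**
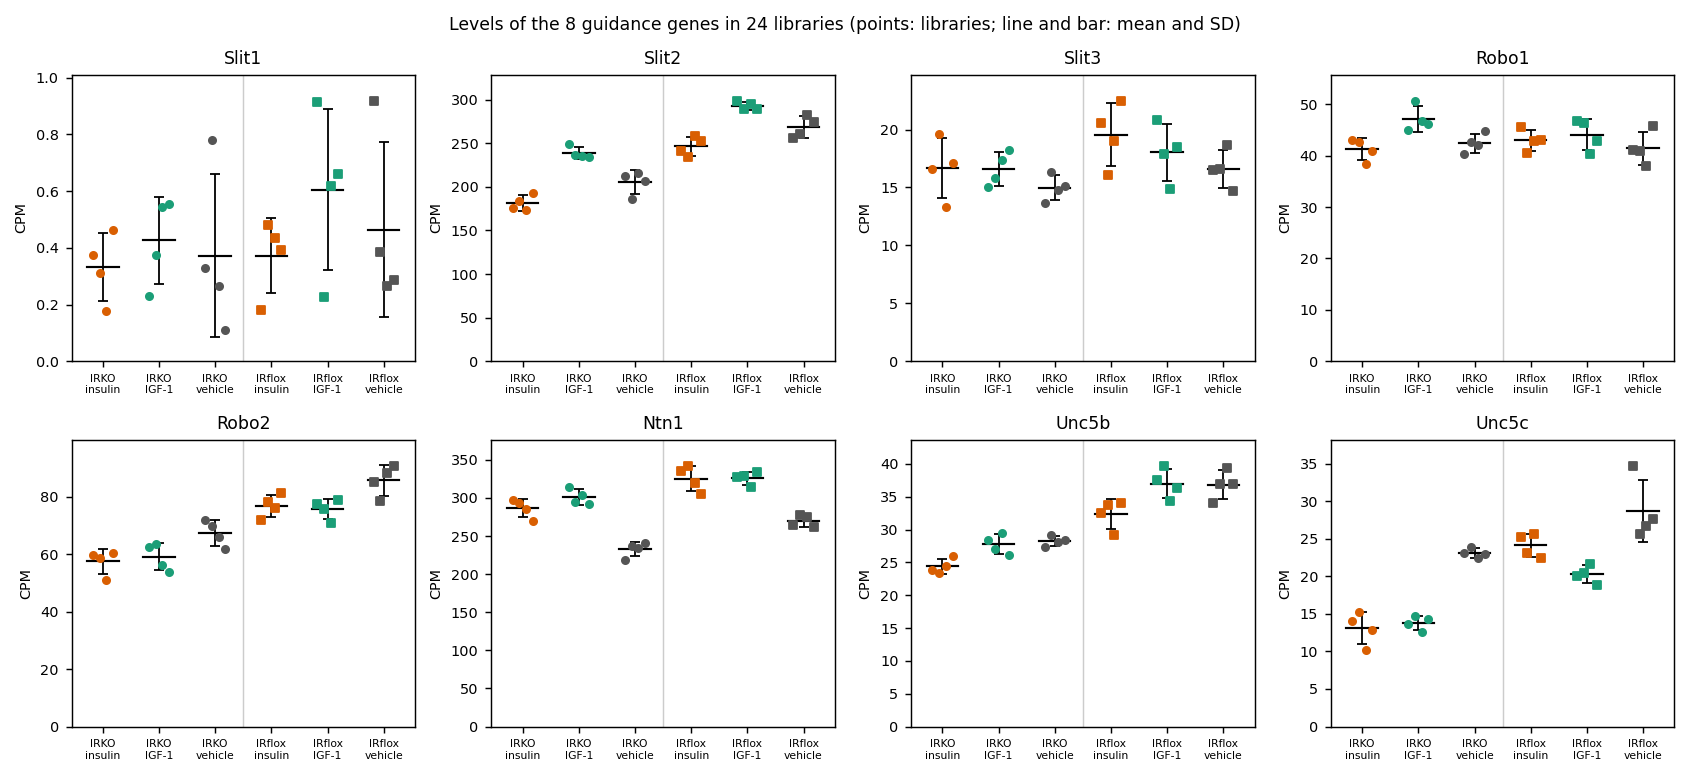
Levels in CPM (vertical axes, from 0) of the 8 genes in the 24 libraries, with IRKO groups as circles left of the IRflox groups as squares, and the mean and SD of each group (n = 4) as a line and bar. Slit2, Robo2, Unc5b and Unc5c lie lower in IRKO than in IRflox libraries of the same treatment without overlap, and the Slit1 panel spans only 0.111 to 0.919 CPM.

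Slit2, Ntn1, Robo2, Unc5b and Unc5c were lower in IRKO than in IRflox astrocytes under vehicle and under insulin, in both ligand and receptor families, and none was higher. Under vehicle, Slit2, Ntn1, Robo2, Unc5b and Unc5c were lower, 5 of 8, where 7.86% of all tested genes were called at an edgeR adjusted p under 0.05 and 4.1% were called lower. The libraries of these 5 did not overlap between genotypes, which held, in the lower direction, for 5.78% of all genes under vehicle and 7.8% under insulin. The same 5 were lower under insulin, where 10.5% of all genes were called and 5.53% were lower (863 genes, and 698 when libraries were scaled by size alone). Under IGF-1, Slit2, Robo2, Unc5b and Unc5c were lower, 4 of 8, against 6.76% of all genes called and 3.15% called lower, and these 4 did not overlap (6.58% of all genes in that direction). The median log2 difference of the 8 was -0.30 (vehicle), -0.32 (insulin) and -0.33 (IGF-1), beside medians over all genes of -0.00084, 0.0022 and -0.00082. In bulk RNA, fewer cells of a type and less RNA per cell cannot be told apart.

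Slit2, the most abundant Slit ligand gene here per length (chromosome 5, 47983138 to 48307733, plus strand, mm10), had 176, 184, 173 and 193 CPM in the IRKO insulin libraries, 249, 237, 235 and 234 CPM in the IRKO IGF-1 libraries and 213, 186, 216 and 207 CPM in the IRKO vehicle libraries. In IRflox astrocytes Slit2 had 241, 234, 258 and 253 CPM with insulin, 299, 289.9, 295 and 289 CPM with IGF-1 and 256, 261, 283 and 274 CPM with vehicle. Every IRKO library lay below every IRflox library of the same treatment, and within each genotype the IGF-1 libraries were highest and did not overlap the insulin ones. Slit2 was lower in IRKO by log2 differences of -0.39 under vehicle (SE 0.0429, edgeR adjusted p = 3.13e-08), -0.44 under insulin (SE 0.0434, 1.39e-09) and -0.30 under IGF-1 (SE 0.0428, 9.37e-06). The order of the 6 group means was IRflox IGF-1, IRflox vehicle, IRflox insulin, IRKO IGF-1, IRKO vehicle and IRKO insulin. Of the neighbours in this order, IRflox IGF-1 and vehicle did not overlap, nor did IRKO IGF-1 and vehicle, and the other 3 pairs did.

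Ntn1, which encodes netrin-1 (chromosome 11, 68209364 to 68400823, minus strand), differed less between genotypes and more between treated and vehicle libraries. It had 297, 293, 285 and 270.1 CPM in the IRKO insulin libraries, 314, 295, 304 and 292 CPM in the IRKO IGF-1 libraries and 219, 237, 234 and 240.2 CPM in the IRKO vehicle libraries. In IRflox astrocytes Ntn1 had 335, 342, 319.8 and 305 CPM with insulin, 327, 329, 314 and 334 CPM with IGF-1 and 265, 278, 275 and 262 CPM with vehicle. All treated libraries of a genotype lay above its vehicle libraries, and the insulin and IGF-1 libraries overlapped. Ntn1 was lower in IRKO under vehicle (log2 difference -0.21, SE 0.0395, edgeR adjusted p = 0.000253) and under insulin (-0.18, SE 0.0392, 0.00124). Under IGF-1 the difference was -0.11 (SE 0.0392) and did not pass (edgeR adjusted p = 0.0718); the groups met at 314 CPM, and it passed in DESeq2 (0.0362).

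Robo2, a receptor for Slit ligands (chromosome 16, 73891839 to 74411825, minus strand), had 59.8, 58.7, 51.1 and 60.5 CPM in the IRKO insulin libraries, 62.7, 63.7, 56.2 and 54 CPM in the IRKO IGF-1 libraries and 72.1, 69.7, 66.2 and 61.7 CPM in the IRKO vehicle libraries. Its IRflox levels were 72.1, 78.3, 76 and 81.3 CPM with insulin, 77.6, 75.7, 70.8 and 78.9 CPM with IGF-1 and 85.2, 78.6, 88.3 and 90.8 CPM with vehicle. The genotypes did not overlap under any treatment, and the vehicle group had the highest mean in each genotype. Robo2 was lower in IRKO by -0.35 under vehicle (SE 0.0564, edgeR adjusted p = 3.91e-05), -0.42 under insulin (SE 0.058, 2.3e-06) and -0.36 under IGF-1 (SE 0.0581, 5.67e-05), in log2 units. Robo1, the other Slit receptor followed here (chromosome 16, 72308306 to 73046095, plus strand), averaged 42.4 ± 1.85 CPM in IRKO and 41.4 ± 3.22 CPM in IRflox vehicle libraries (SD, n = 4 each). Its mean was 41.2 ± 2.12 CPM with insulin and 47.1 ± 2.5 CPM with IGF-1 in IRKO, and 43 ± 2.04 CPM with insulin and 44.1 ± 2.98 CPM with IGF-1 in IRflox astrocytes. Robo1 did not pass between genotypes under any treatment, with log2 differences of 0.033 under vehicle (SE 0.0588, edgeR adjusted p = 0.813), -0.06 under insulin (SE 0.0593, 0.599) and 0.096 under IGF-1 (SE 0.0586, 0.396).

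Unc5b and Unc5c encode netrin receptors that mediate repulsion and that are also known to promote cell death when no ligand is bound. Unc5b (chromosome 10, 60762593 to 60831581, minus strand) had 23.8, 23.4, 24.4 and 26 CPM in the IRKO insulin libraries, 28.4, 27.1, 29.5 and 26.1 CPM in the IRKO IGF-1 libraries and 27.3, 29.1, 28.1 and 28.4 CPM in the IRKO vehicle libraries. Its IRflox levels were 32.6, 33.8, 29.1 and 34.1 CPM with insulin, 37.5, 39.7, 34.4 and 36.3 CPM with IGF-1 and 34.1, 37, 39.4 and 36.9 CPM with vehicle. IRKO libraries were lower without overlap under each treatment, and the IRKO insulin libraries were the lowest group. The log2 differences between genotypes were -0.39 under vehicle (SE 0.0613, edgeR adjusted p = 2.83e-05), -0.41 under insulin (SE 0.0637, 1.8e-05) and -0.41 under IGF-1 (SE 0.0622, 1.78e-05).

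Unc5c (chromosome 3, 141465216 to 141834924, plus strand) showed the widest range of group means among the 8 genes, 1.12 on the log2 CPM scale. It had 14.1, 15.3, 10.2 and 12.9 CPM in the IRKO insulin libraries, 13.7, 14.7, 12.6 and 14.3 CPM in the IRKO IGF-1 libraries and 23.1, 23.9, 22.4 and 23 CPM in the IRKO vehicle libraries. Its IRflox levels were 25.3, 23.1, 25.6 and 22.5 CPM with insulin, 20.1, 20.4, 21.7 and 18.8 CPM with IGF-1 and 34.7, 25.6, 26.7 and 27.6 CPM with vehicle. The treated IRKO libraries were below all others, and IRflox vehicle replicate 1 stood above the rest of its group. Unc5c was lower in IRKO under insulin (log2 difference -0.88, SE 0.0923, edgeR adjusted p = 7.26e-09) and under IGF-1 (-0.55, SE 0.0936, 0.000107). Under vehicle the difference was -0.31 (SE 0.0839, edgeR adjusted p = 0.014), and it was -0.21 and did not pass (adjusted p = 0.118) without IRflox vehicle replicate 1.

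Slit3, a second Slit ligand gene (chromosome 11, 35121224 to 35708507, plus strand), averaged 16.6 ± 2.58 CPM in IRKO and 19.5 ± 2.69 CPM in IRflox insulin libraries, and 15 ± 1.04 CPM in IRKO and 16.6 ± 1.64 CPM in IRflox vehicle libraries (SD, n = 4 each). With IGF-1 it averaged 16.6 ± 1.45 CPM in IRKO and 18 ± 2.43 CPM in IRflox libraries. The genotypes overlapped under every treatment. Slit3 did not pass between genotypes, with log2 differences of -0.15 (vehicle), -0.23 (insulin) and -0.12 (IGF-1; SE 0.102 to 0.104, edgeR adjusted p from 0.144 to 0.601). Slit1, the third Slit ligand gene (chromosome 19, 41600257 to 41743665, minus strand), ranged over 0.111 to 0.919 CPM. Its group means were 0.332 (insulin), 0.426 (IGF-1) and 0.371 CPM (vehicle) in IRKO, and 0.372 (insulin), 0.605 (IGF-1) and 0.463 CPM (vehicle) in IRflox astrocytes. The log2 differences between genotypes were -0.29 (vehicle), -0.16 (insulin) and -0.50 (IGF-1), with standard errors of 0.479 to 0.543 and edgeR adjusted p from 0.636 to 0.907. A difference in Slit1 was not detectable at this depth.

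**Figure D2:**
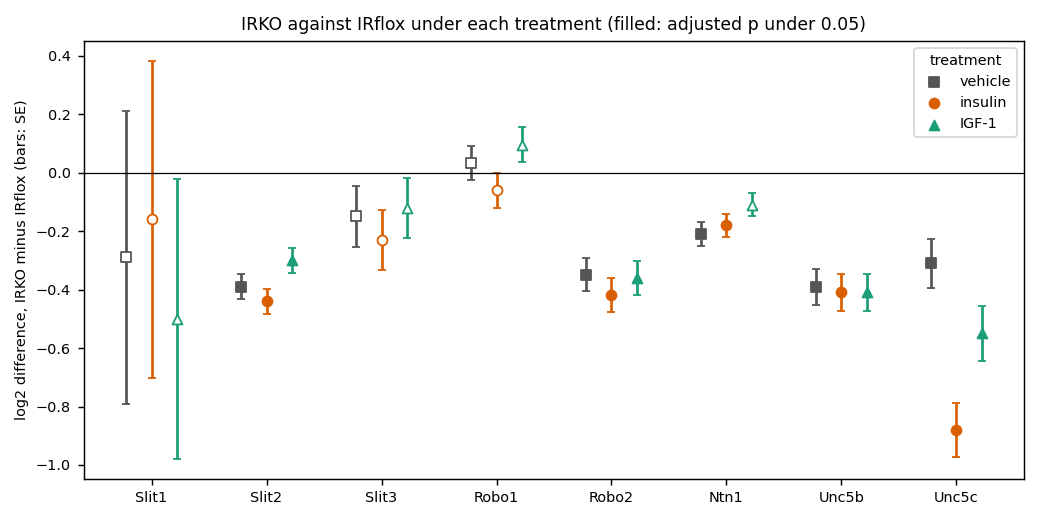
Log2 differences, IRKO minus IRflox (vertical axis), for the 8 genes under vehicle (squares), insulin (circles) and IGF-1 (triangles), with standard errors of the fit; filled points had an edgeR adjusted p under 0.05. Slit2, Robo2 and Unc5b lie between -0.44 and -0.30 under all 3 treatments, and Unc5c reaches -0.88 under insulin.

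Markers of other cell types differed between genotypes in the same libraries. The summed level of 12 microglia markers was higher in IRKO, at 1314 to 1334 CPM in IRKO against 1078 to 1135 CPM in IRflox libraries under vehicle, 1121 to 1142 against 920.3 to 996 CPM under insulin and 1088 to 1173 against 963 to 1004 CPM under IGF-1. Of the 12, the number called higher in IRKO was 10 with vehicle, 8 with insulin and 6 with IGF-1, and none was called lower. Of all 15599 tested genes, 586 were called higher with vehicle, 771 with insulin and 564 with IGF-1. The summed level of 10 neuron markers was lower in IRKO, at 126 to 138 CPM in IRKO against 149 to 153 CPM in IRflox libraries under vehicle, 145 to 149 against 171 to 182 CPM under insulin and 147 to 156 against 169 to 181 CPM under IGF-1. Stmn2 and Map2, cytoskeletal genes of neurons, made up most of that sum, while Rbfox3, Snap25 and Nefl, which mature neurons express, were at 0 to 0.405 CPM. Of the 7 neuron markers tested, 2 were called lower in IRKO with vehicle, 3 with insulin and 2 with IGF-1, and 1 was called higher with insulin. The shares of all tested genes called lower were 4.1% with vehicle, 5.53% with insulin and 3.15% with IGF-1. The summed level of 10 markers of the oligodendrocyte lineage was 332 to 354 CPM in IRKO against 306 to 331 CPM in IRflox libraries under vehicle, and it did not overlap under the ligands either. The sum of 11 fibroblast and mural cell markers overlapped between genotypes under each treatment, with 345 to 434 CPM over all libraries, and that of 6 endothelial markers was 6.19 to 11.3 CPM. The part of these cell types in the genotype differences of the guidance genes was not tested.

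**Figure D3:**
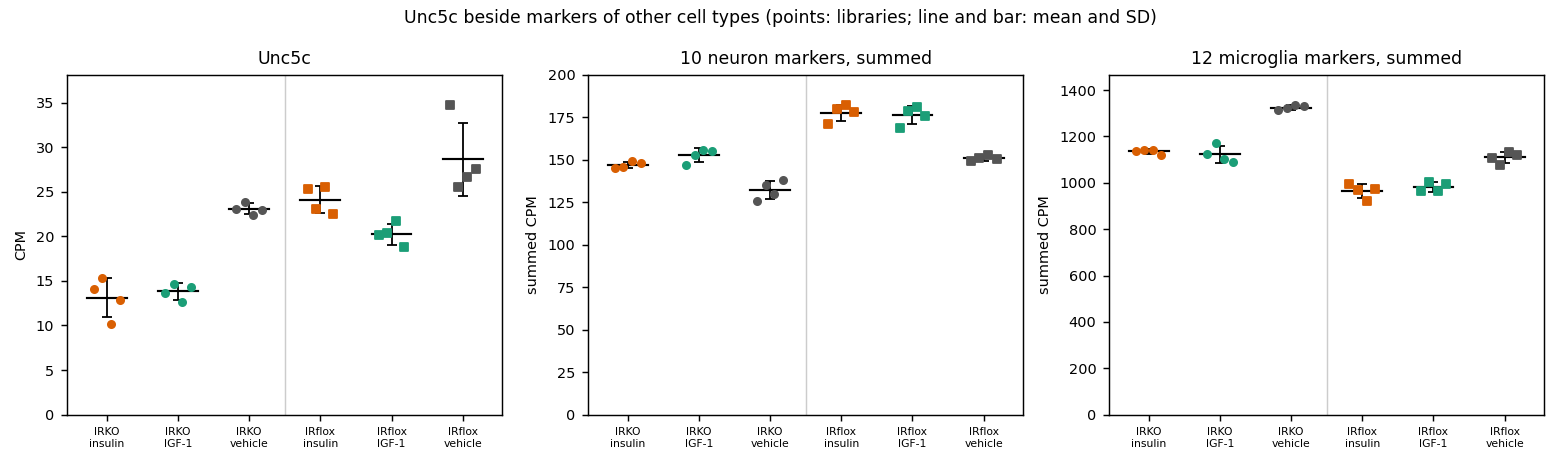
Levels in CPM of Unc5c (left) and summed CPM of 10 neuron markers (middle) and 12 microglia markers (right) in the 24 libraries, IRKO groups as circles left of IRflox groups as squares, with the mean and SD of each group (n = 4). The neuron sum is lower and the microglia sum higher in IRKO than in IRflox libraries of the same treatment. Under insulin and IGF-1 the neuron sum is above its vehicle level and Unc5c below. Single neuron markers went both ways with the ligands. Of the 7 tested, 2 were called higher and 2 lower with each ligand in IRKO (edgeR adjusted p under 0.05). In IRflox it was 3 higher and 1 lower with insulin, and 2 higher and 1 lower with IGF-1. Of all tested genes, 46.4% were called with insulin and 52% with IGF-1 in IRKO, and 45.7% and 50.8% in IRflox. Nothing is read from the marker counts.

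The ligand responses by which the genes were picked fell into a few forms. Slit2 was lower with insulin and higher with IGF-1 than with vehicle in both genotypes. Its log2 difference from vehicle was -0.18 (SE 0.0435) with insulin and 0.22 (SE 0.0431) with IGF-1 in IRKO, and -0.12 (SE 0.0428) with insulin and 0.13 (SE 0.0425) with IGF-1 in IRflox astrocytes. Insulin set directly against IGF-1 gave -0.40 (SE 0.0434) in IRKO and -0.25 (SE 0.0427) in IRflox astrocytes. In that comparison 2.67% of all tested genes were past an edgeR adjusted p under 0.05 in IRKO and 2.59% in IRflox. Of the members it was 1 of 8 in each genotype, Slit2, a count that describes the contrast behind the choice and is no test of it.

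Ntn1 had positive log2 differences with both ligands, 0.30 (SE 0.0395) with insulin and 0.37 (SE 0.0395) with IGF-1 in IRKO, and 0.27 with each (SE 0.0393) in IRflox astrocytes. Robo2 had negative ones throughout, -0.23 with insulin and -0.19 with IGF-1 in IRKO, and -0.16 with insulin and -0.18 with IGF-1 in IRflox astrocytes (SE 0.0562 to 0.0582). Unc5c also had negative ones, -0.82 (SE 0.0918) with insulin and -0.74 (SE 0.0916) with IGF-1 in IRKO, and -0.25 (SE 0.0844) with insulin and -0.50 (SE 0.0858) with IGF-1 in IRflox astrocytes. Without IRflox vehicle replicate 1, the Unc5c value for insulin in IRflox was -0.15. In IRflox astrocytes its insulin libraries, 22.5 to 25.6 CPM, lay above its IGF-1 libraries, 18.8 to 21.7 CPM, while in IRKO astrocytes those groups overlapped.

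Unc5b was lower with insulin, by -0.21 (SE 0.0639) in IRKO and -0.19 (SE 0.061) in IRflox astrocytes, and near its vehicle level with IGF-1, at -0.023 (SE 0.0633) in IRKO and 0.0022 (SE 0.0602) in IRflox astrocytes. Its insulin libraries lay below its IGF-1 libraries without overlap in both genotypes. Robo1 had 0.15 (SE 0.0584) with IGF-1 and -0.04 (SE 0.0588) with insulin in IRKO, and 0.089 (SE 0.059) with IGF-1 and 0.053 (SE 0.0593) with insulin in IRflox astrocytes. Slit3 values were between 0.11 and 0.23 in all 4 comparisons with vehicle (SE 0.102 to 0.105).

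Counting signs alone, 3 of the 8 genes had opposite signs under insulin and IGF-1 in each genotype: Slit1, Slit2 and Robo1 in IRKO, and Slit1, Slit2 and Unc5b in IRflox astrocytes. Of these, Unc5b in IRflox was 0.0022 with IGF-1, and became -0.015 when libraries were scaled by size alone. Slit1 had standard errors of 0.467 to 0.531. The counts past the same threshold describe the contrasts that chose the genes, and nothing is read from them. With insulin, 5 of 8 were past the threshold in IRKO (46.4% of all genes) and 5 in IRflox (45.7%). With IGF-1, 5 of 8 were past it in IRKO (52% of all genes) and 4 in IRflox (50.8%). Insulin and IGF-1 share the vehicle libraries of their genotype.

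**Figure D4:**
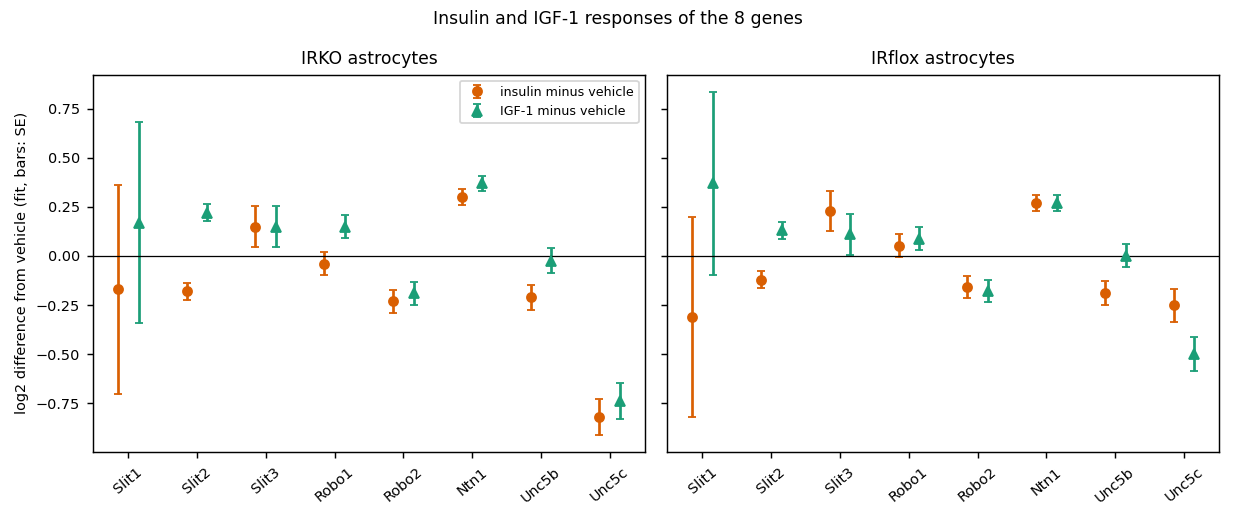
Log2 differences from vehicle (vertical axis, with standard errors of the fit) with insulin (circles) and IGF-1 (triangles) for the 8 genes, in IRKO astrocytes on the left and IRflox astrocytes on the right. Slit2 lies below 0 with insulin and above 0 with IGF-1 in both panels, Ntn1 lies above 0 and Robo2 and Unc5c below 0 with both ligands.

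Whether a response differed between genotypes was examined as the IRKO response minus the IRflox response. This difference is computed from the same responses by which the genes were picked. For the members its p-values are therefore not independent of the choice and are given as a description. None of the 8 genes passed for insulin or for IGF-1 in edgeR. Over all 15599 genes also 0 were called (0%), with 838 at an unadjusted p under 0.05 for insulin and 822 for IGF-1, and DESeq2 called 0 and 2. Of the 8, Unc5c alone had an unadjusted p under 0.05, for insulin, with a log2 difference of -0.56 (SE 0.125) and an edgeR adjusted p of 0.276. The Unc5c adjusted p was 0.112 in DESeq2, 0.0209 without IRflox vehicle replicate 1 and 0.00092 with no filter on low counts. With no filter, 12 genes were called higher and 7 lower of 25053 for insulin. For IGF-1 the Unc5c difference was -0.24 (SE 0.126, edgeR adjusted p = 0.935). Slit2 gave -0.053 (SE 0.061) for insulin and 0.093 (SE 0.0605) for IGF-1 (edgeR adjusted p = 0.964 and 0.953).

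Of 30 listed partners of the Slit, Robo and netrin system, 27 were tested. In IRKO, 1 was higher and 6 were lower with vehicle, 1 higher and 5 lower with insulin and 1 higher and 4 lower with IGF-1. The shares called were 25.9%, 22.2% and 18.5% of the 27, beside 7.86%, 10.5% and 6.76% of all tested genes. The list was chosen with earlier results of these data known, so these shares are a description. Flrt2, a membrane protein that binds UNC5 receptors, averaged 33 ± 2.63 CPM in IRKO and 47.1 ± 2.76 CPM in IRflox insulin libraries (SD, n = 4 each), with a log2 difference of -0.51 (SE 0.06, edgeR adjusted p = 9.01e-08). Flrt2 was also lower under vehicle (-0.47, adjusted p = 1.81e-06) and IGF-1 (-0.38, adjusted p = 2.42e-05), by the same edgeR fit. Ntng2, a netrin-related membrane-anchored ligand, was higher in IRKO under each treatment, by 0.20 to 0.24 (edgeR adjusted p from 6.4e-05 to 0.00103). Unc5d, a further netrin receptor gene at 1.23 ± 0.307 CPM in IRKO and 2.23 ± 0.543 CPM in IRflox vehicle libraries, was lower with vehicle (-0.85, SE 0.271, edgeR adjusted p = 0.0425) and with IGF-1 (-1.07, SE 0.265, 0.00791). With insulin the Unc5d difference of -0.52 (SE 0.251) did not pass (edgeR adjusted p = 0.196).

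Ntn4, which encodes netrin-4, moved with the ligands in the direction opposite to Ntn1. It averaged 42.8 ± 1.83 CPM with insulin, 37.2 ± 2.23 CPM with IGF-1 and 95.9 ± 5.75 CPM with vehicle in IRKO astrocytes (SD, n = 4 each). In IRflox astrocytes Ntn4 averaged 49.8 ± 2.64 CPM with insulin, 42.8 ± 2.89 CPM with IGF-1 and 117 ± 1.82 CPM with vehicle. The log2 differences from vehicle were -1.17 with insulin and -1.36 with IGF-1 in IRKO, and -1.24 with insulin (edgeR adjusted p = 4.04e-23) and -1.45 with IGF-1 in IRflox, and no treated library overlapped a vehicle library. Ntn4 was lower in IRKO than in IRflox under vehicle as well (-0.29, SE 0.0476, edgeR adjusted p = 4.6e-05). Of the other netrin receptors, Neo1, which encodes neogenin, averaged 198 ± 6.67 CPM in IRKO and 203 ± 12.1 CPM in IRflox vehicle libraries. Dcc had 0 to 8 counts in a library and Robo4, a Robo gene of blood vessels, 0 to 6, and neither was abundant enough to be tested.

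In wider lists of guidance genes and their effectors, Robo and netrin receptor effectors had 2 higher and 4 lower of 28 tested in IRKO with vehicle, 3 higher and 3 lower with insulin and 0 called with IGF-1. Srgap1, a GTPase-activating protein that binds Robo receptors, was lower with vehicle, at 18.5 ± 1.17 CPM in IRKO and 22.9 ± 1.17 CPM in IRflox libraries (SD, n = 4 each), a log2 difference of -0.31 (SE 0.0826, edgeR adjusted p = 0.014). Srgap1 did not pass with insulin (-0.19, edgeR adjusted p = 0.154) or IGF-1 (-0.10, adjusted p = 0.57). The related Srgap2 (0.064, edgeR adjusted p = 0.392) and Srgap3 (-0.039, 0.707) did not pass with vehicle, nor with either ligand. The effectors with the lowest p under vehicle went both ways. Myo10 (-0.23, edgeR adjusted p = 0.000297) and Pak1 (-0.33, 0.0104) were lower in IRKO, and Dock2 (0.29, 0.00076) and Vasp (0.19, 0.0114) were higher. Semaphorins, plexins and neuropilins had 4 higher and 4 lower of 28 with vehicle, 3 higher and 4 lower with insulin and 3 higher and 3 lower with IGF-1. Those with the lowest p under vehicle were Sema4a (0.41, edgeR adjusted p = 0.000324) and Nrp2 (0.22, 0.00131), higher in IRKO. With them were Sema6a (-0.22, edgeR adjusted p = 0.000535) and Sema3c (-0.19, 0.000835), lower in IRKO. Ephrins and Eph receptors had 0 higher and 5 lower of 19 with vehicle, 1 higher and 4 lower with insulin and 2 higher and 4 lower with IGF-1. Epha4, an Eph receptor of neurons and astrocytes, was lower under each treatment, by -0.34 with vehicle (edgeR adjusted p = 1.79e-06), -0.30 with insulin (1.1e-05) and -0.22 with IGF-1 (0.00131). Over all 4 lists, 25.5% of 102 tested genes were called with vehicle, 23.5% with insulin and 16.7% with IGF-1 in IRKO against IRflox. The shares of all genes given above were 7.86%, 10.5% and 6.76%. The lists were chosen with earlier results of these data known, so the shares are a description and no test.

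Genes whose 6 group means ran most like those of a member were found by the root mean square difference of centred mean log2 CPM, among 12086 genes. For Robo2 these were Cd200 (0.024) and Maoa (0.0357), and for Unc5b they were Fzd7 (0.0288) and Foxc1 (0.0411). For Slit2 they were Nav3 (0.0545) and Haus8 (0.0717), and for Unc5c, at a wider distance, Ccn3 (0.122) and Svep1 (0.139). Slit3, Robo1 and Ntn1 spanned less than 0.5 between their group means and were not matched. Slit1 was nearest to Hes1 (0.0913) and Bdnf (0.0918), though its own group means rest on 16 counts or fewer in a library.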

How the data were processed

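RNA was measured in 24 libraries, 4 in each of 6 groups read from their titles. The authors deposited 1 table per library of raw, unnormalized read counts by gene. Per the labels' protocols, the libraries were poly-A selected and not strand-specific, and were read as pairs of 150 bp. Per the submitters' processing notes, the tools were STAR 2.7.7a, R 4.0.4, DESeq2 and edgeR and the build was mm10, with no roles stated. How reads were assigned to genes, and with which annotation, is not given in the sources used here. Lines that name no gene were left out; reads outside genes were 14.5 to 23.2% of a library.

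Of 32719 genes, 7666 had no count and 15599 passed edgeR's expression filter (minimum count 10, minimum total 15). TMM factors were 0.982 to 1.02. The quasi-likelihood test of edgeR 4.0.16 (R 4.3.3) was run on all 24 libraries together, each group having its own mean, and a call needs a p under 0.05 after Benjamini-Hochberg adjustment over all 15599 genes of a comparison. CPM came from the counts, with a prior count of 2 for log2 CPM. The biological coefficient of variation was 4.92%. No pair of replicates agreed within counting error (chi-square per gene 2.17 to 6.88), and each library was kept. The fits were tested on simulated data.

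The 8 members, the lists of related genes and the marker lists were chosen with earlier results of these data known. For the members, comparisons between ligands or with vehicle are given without p-values, since they chose the members. Comparisons between genotypes, which the rule did not name, are tested, although earlier results were known and the same libraries are used. Comparisons of responses between genotypes are given with p-values, which for the members are not independent of the choice. Related genes were named from those of lowest p in a list, or from a fixed set of receptors, ligands and Srgap genes always examined. Gene positions are from GENCODE M21 (mm10), promoter sequences from RefSeq (GRCm38.p6). Alternatives were library size alone, DESeq2 1.42.0, no filter, a mean CPM of at least 1, only the groups compared, the replicate number as a block, and leaving out each library.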

Additional observations from a re-analysis of the deposited data

How the results depend on the processing

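The genotype calls of Slit2, Robo2 and Unc5b held under every alternative run, and so did those of Unc5c under insulin and IGF-1 and of Ntn1 under vehicle and insulin. Unc5c under vehicle was lost without IRflox vehicle replicate 1 (-0.21, adjusted p 0.118), the library with its highest level. Ntn1 under IGF-1 was called with DESeq2 (adjusted p 0.0362), with only the groups compared (0.0346), without IRflox IGF-1 replicate 3 (0.0445) and without IRKO IGF-1 replicate 1 (0.0433), and Slit3 under insulin without IRflox insulin replicate 2 (-0.32, 0.046); the cause was not tested.

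Counts of members past the threshold were 2 in place of 1, or 1 in place of 0, in 3 comparisons. In 6 others they differed by 1 gene under some alternatives: all 3 of IRKO against IRflox, IGF-1 against vehicle in IRKO and in IRflox, and insulin against vehicle in IRflox. Those between ligands or with vehicle describe contrasts that chose the members. Insulin against IGF-1 in IRKO gave 2 (Slit2 and Robo1) with no filter, with DESeq2 and with only the groups compared, against 1. Leaving out single libraries gave 1 to 2 for insulin against IGF-1 in IRflox, where Unc5b joined Slit2 without IRflox IGF-1 replicate 3, and 0 to 1 for the insulin response of IRKO minus IRflox, where Unc5c was called without IRflox vehicle replicate 1. That response also gave 1 (Unc5c) with no filter. The cause was not tested.

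Among differences between genotypes and between their responses, signs turned only for those near 0 or with few counts, none called. The IGF-1 response of IRKO minus IRflox for Robo2 was 0.0017 with a mean CPM of at least 1 and -0.057 to 0.026 without single libraries. Leaving out single libraries gave, for IRKO against IRflox, -0.95 to 0.27 (Slit1, vehicle), -0.37 to 0.031 (Slit1, insulin) and -0.0084 to 0.086 (Robo1, vehicle). For the insulin response of IRKO minus IRflox it gave -0.43 to 0.79 (Slit1), -0.065 to 0.018 (Unc5b) and -0.0012 to 0.059 (Ntn1), and for the IGF-1 response -0.77 to 0.45 (Slit1), -0.066 to 0.017 (Unc5b) and -0.053 to 0.12 (Slit3).

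Libraries with the same replicate number did not deviate together (correlations -0.11 to 0.05), so no shared effect of the number was seen. This cannot establish that the samples were unpaired, since technical variation alone would also give correlations near 0. With the replicate number as a block, the counts of members called were unchanged, 5 of 8 lower in IRKO with vehicle, 5 with insulin and 4 with IGF-1, and 595 genes were higher and 621 lower over all genes under vehicle. Scaled by library size alone, all genes under insulin split into 942 higher and 698 lower in IRKO than in IRflox, against 771 and 863 with TMM. Depth limits Slit1, whose 2 to 16 counts in a library leave errors near 0.5 on the log2 scale.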
